A study of Mus musculus with 7 samples.

Results

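Interferon regulatory factors (IRFs) are transcription factors that share an N-terminal DNA-binding domain and bind interferon-stimulated response elements. The genes described here are Irf1, Irf2, Irf3, Irf4, Irf5, Irf8 and Irf9, chosen by symbol from a table of 24062 genes, and all 7 were found and tested. RNA was sequenced from 3 enlarged whole spleens of mice with the genotype Vav1-iCre;Brca1F22-24/F22-24, in which Cre recombinase made in blood cells deletes exons 22 to 24 of the DNA repair gene Brca1. The other group was 4 spleens of C57BL6 wild-type mice (Brca1+/+), and all animals were 2 to 3 months old. The recombinase, the altered allele and spleen enlargement are named for the mutants alone, so their effects, and any of strain background, cannot be told apart. Separate spleens are labelled in each group, and p-values measure the spread between them.

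As background, Irf3 and Irf5 wait in the cytoplasm until kinases downstream of nucleic acid sensors phosphorylate them, after which they turn on interferon and inflammatory cytokine genes. Irf9 joins Stat2 in the complex that carries the signal of type I interferon to its target genes, while Irf1 is made in response to interferon gamma and Irf2 can compete with it for the same DNA sites. Irf4 and Irf8 are lineage factors of blood cells that bind DNA together with partners such as Spi1 and Batf. In the spleen Irf8 is known for its part in dendritic cells, monocytes and B cells, and Irf4 for its part in plasma cells, activated T cells and a subset of dendritic cells.

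Total counts ran from 30660980 to 51680976 in the mutant libraries and from 26889712 to 63612532 in the wild-type libraries. Brca1 counts cannot show the loss of 3 exons, and its level of 52.5 ± 13.3 CPM (counts scaled to library size and TMM factor) in mutants and 38.7 ± 26.4 CPM in wild type (SD, n = 3 and 4) did not pass the test (log2 fold change 0.44, SE 0.51, edgeR adjusted p = 0.49). Of 7 spleen stroma and resident macrophage genes 3 were called lower (5 without mutant 1), beside 28.9% of all genes tested. That list, with the spleen transcription factor Tlx1 and the macrophage receptor Marco, had summed levels of 206 to 1248 CPM in mutants and 1532 to 1966 CPM in wild type. Wild-type 1 and 2 stood apart from the other wild-type libraries by high erythroid genes and by 4 pancreatic enzyme genes, whose summed level was 0.705 to 1.18 CPM in mutants and 1.06 to 10003 CPM in wild type. All 4 were called lower in mutants by edgeR, and 0 without wild-type 1 and 2 or by DESeq2 or limma-voom. For that reason the fold changes are also given without these 2 libraries.

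Start sites of 3 of the genes carry short sequences known from interferon signalling, shown here because all 3 genes were lower in the mutants and have such a match. RefSeq windows (GRCm38.p6, 250 bases before to 50 after the start) were found for all 7 genes, 10 windows in all. Both strands were searched for the gamma-activated site TTCNNNGAA, bound by STAT factors, and for the interferon-stimulated response element core, which is GAAA, any 2 bases and GAAA, bound by IRFs. The ETS-IRF composite element (GGAA, any 2 bases and GAAA) and the kB consensus were searched too. Capitals mark the gamma-activated site and the response element core, plus strand, 5′ to 3′, at chr11:53769904-53769952 for Irf1, chr8:120736167-120736233 for Irf8 and chr8:46739495-46739549 for Irf2.
Irf1: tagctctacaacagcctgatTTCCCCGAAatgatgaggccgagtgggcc
Irf8: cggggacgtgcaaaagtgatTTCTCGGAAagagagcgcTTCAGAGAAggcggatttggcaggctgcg
Irf2: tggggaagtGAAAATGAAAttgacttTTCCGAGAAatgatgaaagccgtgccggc
The gamma-activated site begins 90 bases before the start in Irf1, 171 and 153 bases before it in Irf8 and 224 bases before it in Irf2. The response element core begins 241 bases before the start in Irf2, where it overlaps a match to the composite element that begins 247 bases before the start. The kB consensus was matched in Irf1 and Irf2. No match to any of these sequences was found for Irf3, nor for Irf4, Irf5 and Irf9, which were also lower in the mutants. Of all 32851 RefSeq windows of this length, 8.3% hold the gamma-activated site, 3.44% the response element core, 2.72% the composite element and 8.46% the kB consensus. These matches describe the letters alone.

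Expression of 6 of the 7 IRF genes was lower in mutant spleens, by 2.33-fold to 14.7-fold, and 1, Irf3, did not pass the test. The steepest decreases were in Irf5 and Irf8, and Irf1, Irf2, Irf4 and Irf9 fell 2.33-fold to 3.05-fold. The edgeR quasi-likelihood test (adjusted p below 0.05) called 57.4% of all 15188 genes tested, 28.9% lower and 28.5% higher in the mutant, and 23.1% at least 2-fold lower. Among the IRF genes 6 were called lower, each at least 2-fold, and 0 higher, with 0 higher at an unadjusted p under 0.05 and 0 higher by DESeq2 or limma-voom. Levels in the mutants lay below each wild-type library for the same 6 genes, which held for 32.6% of all genes tested, and above each wild-type library for 0, against 29.2% of all genes. The median log2 fold change (mutant minus wild type) was -1.60 over the 7 genes and -0.02 over all genes tested. In a bulk sample, fewer cells of a type and less RNA per cell cannot be told apart.

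**Figure D1:**
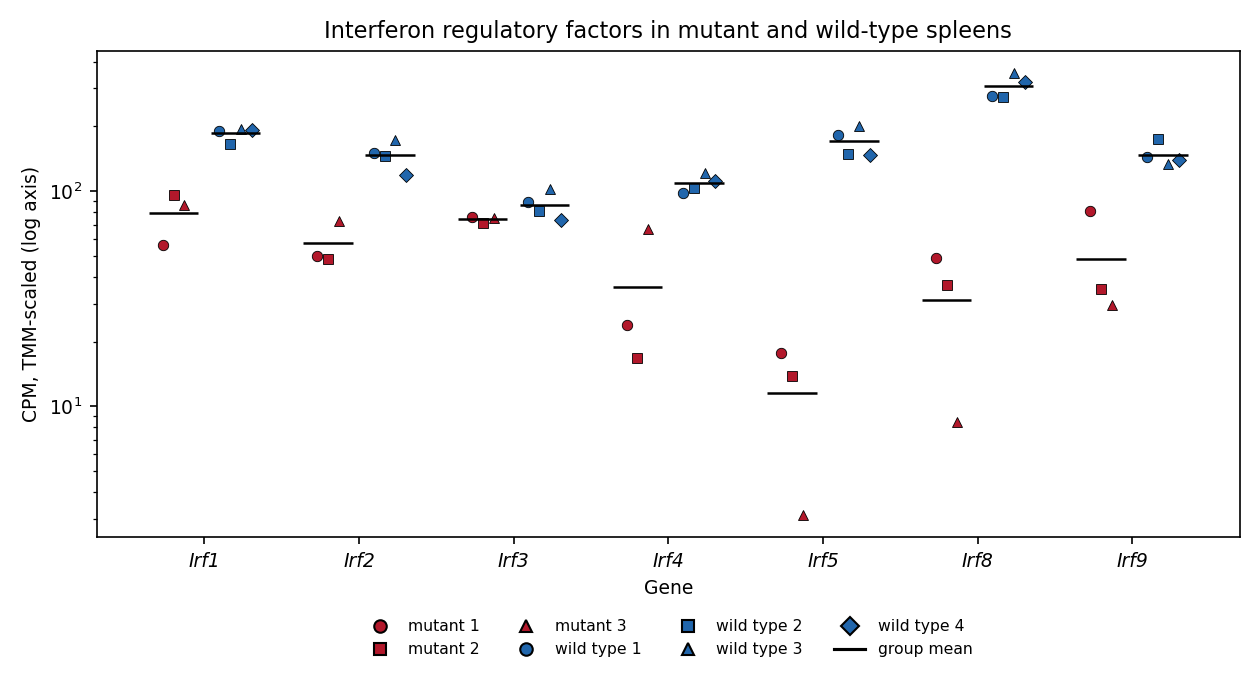
CPM of each IRF gene (TMM-scaled, log axis) in the 3 mutant spleens (red, left of each gene) and the 4 wild-type spleens (blue, right), with symbols for the replicate number and bars for the group means. Mutant values lie below all wild-type values for each gene except Irf3, and mutant 3 has the lowest Irf5 and Irf8 and the highest Irf4 of the mutants.

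Among the factors activated by sensors, Irf3 (chromosome 7, 44997648 to 45002848, plus strand, mm10) stood at 75.6, 70.9 and 75.4 CPM in mutants 1 to 3, against 88.9, 80.7, 102 and 73.6 CPM in wild-type 1 to 4. The groups overlapped, since wild-type 4 lay below 2 of the mutants. Means were 74.0 ± 2.67 CPM in mutants and 86.4 ± 12.3 CPM in wild type, a log2 fold change of -0.22 (SE 0.14, edgeR adjusted p = 0.211). Scaling by library size alone, which moved the median of all genes to -0.26, brought Irf3 to -0.47 and past the threshold (adjusted p = 0.0335, range 0.0335 to 0.459 over its alternatives).

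Irf5, which carries Toll-like receptor signals to inflammatory cytokine genes in myeloid and B cells, lies on chromosome 6 (29526625 to 29537320, plus strand). It stood at 17.7, 13.9 and 3.13 CPM in mutants 1 to 3, against 183, 149.6, 201 and 148 CPM in wild-type 1 to 4. Each mutant was far below the lowest wild-type spleen, and mutant 3 was the lowest of all. The mean was 11.6 ± 7.57 CPM in mutants and 170.3 ± 26.1 CPM in wild type, and the log2 fold change of -3.88 (SE 0.57, edgeR adjusted p = 0.00108) was the largest decrease of the 7 genes. Of all genes tested, 2.96% had a lower log2 fold change.

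Irf9, the DNA-binding part of the type I interferon complex, lies on chromosome 14 (55603985 to 55610030, plus strand). Its level was 80.8, 35.1 and 29.5 CPM in mutants 1 to 3, against 144, 174, 134 and 139.5 CPM in wild-type 1 to 4. Mutant 1 came closest to wild type without reaching it. Irf9 averaged 48.5 ± 28.1 CPM in mutants and 148 ± 18.1 CPM in wild type, a log2 fold change of -1.61 (SE 0.35, edgeR adjusted p = 0.00619).

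Irf1, the activator induced by interferon gamma, lies on chromosome 11 (53770014 to 53778374, plus strand). Mutants 1 to 3 had 56.2, 95.6 and 86.6 CPM, against 189, 165, 194 and 193 CPM in wild-type 1 to 4. Here mutant 1 was the lowest, the reverse of its place for Irf9. The log2 fold change was -1.22 (SE 0.20, edgeR adjusted p = 0.00174), with means of 79.5 ± 20.6 CPM in mutants and 185 ± 13.8 CPM in wild type.

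Irf2, which can occupy the sites of Irf1 and hold its targets down, lies on chromosome 8 (46739745 to 46847458, plus strand). It had 50.1, 48.5 and 72.9 CPM in mutants 1 to 3, against 149.7, 145, 174 and 119 CPM in wild-type 1 to 4. Its highest mutant, mutant 3, was still below its lowest wild-type spleen. The log2 fold change was -1.36 (SE 0.20, edgeR adjusted p = 0.00119), from means of 57.2 ± 13.7 CPM in mutants and 147 ± 22.6 CPM in wild type.

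Irf8, the lineage factor of monocytes and dendritic cells that is also made in B cells, lies on chromosome 8 (120736376 to 120756692, plus strand). Mutants 1 to 3 held 48.9, 36.5 and 8.498 CPM, against 277, 273, 355 and 323 CPM in wild-type 1 to 4. Like Irf5, Irf8 was lowest in mutant 3 and highest in mutant 1 among the mutants. Its mean was 31.3 ± 20.7 CPM in mutants and 307 ± 39.2 CPM in wild type, a log2 fold change of -3.29 (SE 0.56, edgeR adjusted p = 0.00196).

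Irf4, a close relative of Irf8 that is raised by antigen receptor signals, lies on chromosome 13 (30749258 to 30766927, plus strand). It stood at 23.8, 16.8 and 66.8 CPM in mutants 1 to 3, against 98.5, 103, 122 and 111 CPM in wild-type 1 to 4. Mutant 3, which was lowest for Irf5 and Irf8, was the highest mutant for Irf4. Means were 35.8 ± 27.1 CPM in mutants and 109 ± 10.1 CPM in wild type, a log2 fold change of -1.60 (SE 0.45, edgeR adjusted p = 0.0173). The call ended without mutant 1 (-1.31, adjusted p = 0.0553) and without wild-type 1 and 2 (-1.71, adjusted p = 0.0587), the range over its alternatives being 2.93e-04 to 0.0587, and without mutant 3 the value was -2.42 (adjusted p = 2.93e-04).

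Without wild-type 1 and 2 the other decreases stayed past the threshold, at -1.29 for Irf1, -1.36 for Irf2, -3.91 for Irf5, -3.44 for Irf8 and -1.50 for Irf9, with adjusted p-values of 0.00946 to 0.0412 in edgeR, while Irf3 stood at -0.25 (adjusted p = 0.371). No other gene in the deposited coordinates overlaps the span of any of the 7, although the strand setting of the counting is not known.

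The spread within the mutant group differed widely between these genes. The SD of log2 CPM over the 3 mutants was 0.05 for Irf3, 0.33 for Irf2, 0.41 for Irf1, 0.78 for Irf9, 1.04 for Irf4, 1.34 for Irf5 and 1.35 for Irf8, beside a median of 0.39 over all genes tested. Over the 4 wild-type spleens it was 0.11 to 0.23 for the 7 genes, beside a median of 0.20. Of all genes tested, 1.78% had a lower SD in the mutants than Irf3, and 91.4% had a lower SD than Irf8.

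Ratios between pairs of IRF genes within a library do not depend on how libraries are scaled. The log2 count ratio of Irf4 to Irf8 was -1.04, -1.12 and 2.97 in mutants 1 to 3, against -1.49, -1.40, -1.54 and -1.54 in wild-type 1 to 4. Irf4 counts thus exceeded Irf8 counts in mutant 3 alone among the 7 spleens. The difference in means was 1.76 (p = 0.0571, exact two-sided permutation test over 7 spleens; adjusted over 3 ratios 0.0857), and it was 0.41 without mutant 3.

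For Irf5 to Irf3, the pair activated by phosphorylation, the log2 ratio was -2.09, -2.35 and -4.59 in mutants 1 to 3, against 1.04, 0.89, 0.97 and 1.00 in wild-type 1 to 4. Wild-type spleens lay within a narrow band and held more Irf5 than Irf3 counts, and each mutant held fewer. The difference was -3.99 (p = 0.0571, exact permutation, adjusted 0.0857). The smallest two-sided p that this design allows is 0.0571, so none of the 3 ratios could pass 0.05.

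The ratio of Irf1 to its competitor Irf2 was 0.17, 0.98 and 0.25 in mutants 1 to 3, against 0.34, 0.18, 0.16 and 0.70 in wild-type 1 to 4. The groups overlapped, with a difference of 0.12 (p = 0.629, exact permutation, adjusted 0.629) that turned to -0.14 without mutant 2. Both genes were thus lower in the mutants with no detectable difference in their balance between the groups, which 7 spleens cannot show to be equal.

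Levels were set against each other per kilobase of exon, with union exon lengths from the basic set of GENCODE M21. In mutants Irf3 stood highest at 33.8 ± 1.22 CPM per kilobase, followed by Irf1 (23.8 ± 6.19), Irf2 (22.9 ± 5.48), Irf9 (15.6 ± 9.07), Irf8 (9.11 ± 6.03), Irf4 (7.51 ± 5.69) and Irf5 (4.37 ± 2.86). In wild type Irf8 stood highest at 89.3 ± 11.4 CPM per kilobase, followed by Irf5 (64.3 ± 9.87), Irf2 (58.8 ± 9.03), Irf1 (55.6 ± 4.13), Irf9 (47.7 ± 5.82), Irf3 (39.5 ± 5.63) and Irf4 (22.8 ± 2.13). In mutants only Irf3 was clear of the next gene in every spleen. In wild type Irf8 and Irf4 were clear of their neighbours, and among the 5 genes between them each overlapped the next in order in range over the 4 spleens. With lengths from the comprehensive GENCODE set, a choice made after seeing the data, Irf3 still had the highest mutant mean (21.5 ± 0.776, with Irf1 at 19.99 ± 5.19), but it was no longer clear of Irf1, which stood at 24.04 in mutant 2 where Irf3 stood at 20.59. With those lengths Irf5 came first in wild type (58.6 ± 8.997), ahead of Irf1 (46.6 ± 3.47) and Irf8 (43.5 ± 5.55).

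The summed length-scaled level of the 7 genes was 117 ± 6.14 CPM per kilobase in mutants and 378 ± 30.6 CPM per kilobase in wild type. Irf3 made up 28.9 ± 0.796% of that sum in mutants and 10.4 ± 0.738% in wild type. The share of Irf8 was 7.74 ± 4.97% in mutants and 23.6 ± 2.20% in wild type, and that of Irf5 was 3.72 ± 2.37% in mutants and 17.0 ± 1.49% in wild type. Shares of Irf4 overlapped, at 6.41 ± 4.87% in mutants and 6.04 ± 0.414% in wild type. Under the comprehensive lengths the Irf3 share was 29.1% in mutants and 10.3% in wild type. The Irf8 share was then 6.01% in mutants and 17.9% in wild type, below the wild-type share of Irf5, which was 5.40% in mutants and 24.0% in wild type. That of Irf4 was 9.798% in mutants and 9.12% in wild type.

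**Figure D2:**
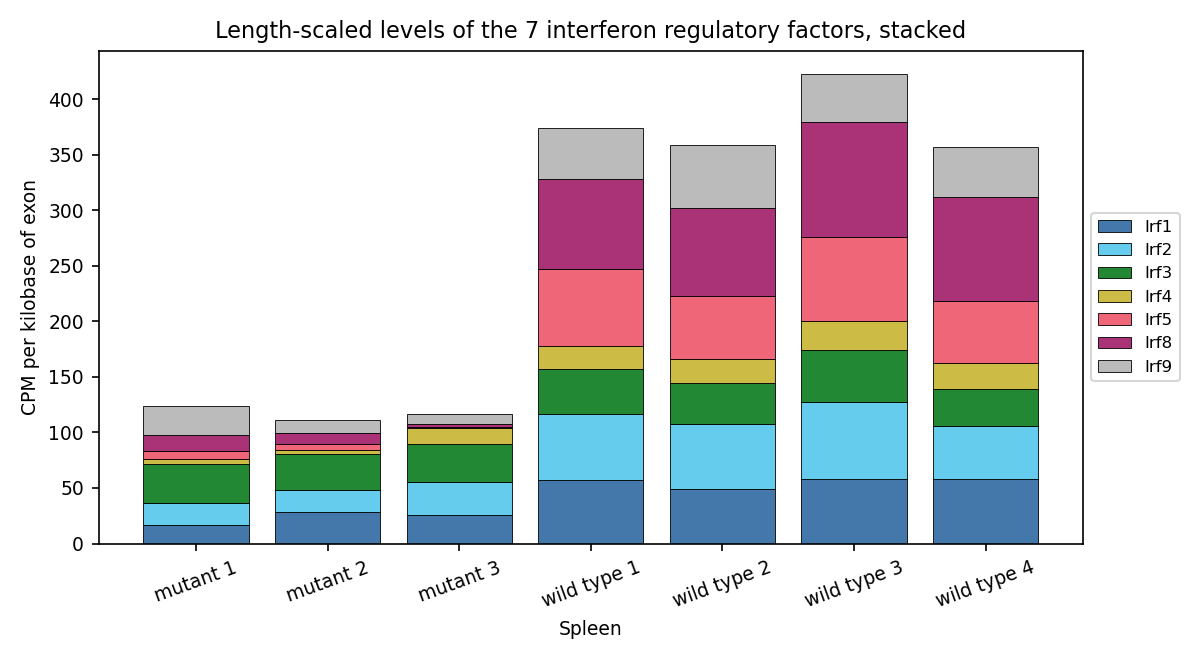
Stacked CPM per kilobase of exon of the 7 IRF genes in each spleen, the 3 mutants to the left of the 4 wild-type spleens. The mutant columns reach 111 to 123 CPM per kilobase and the wild-type columns 357 to 422, and the green Irf3 segment averages 33.8 in mutants and 39.5 in wild type, while the purple Irf8 segment averages 9.11 and 89.3 and the pink Irf5 segment 4.37 and 64.3.

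Markers of B cells, monocytes, macrophages and dendritic cells mostly fell, while T cell markers mostly rose, and their part in the results was not tested. Genes counted as having fallen or risen in these and later lists are those called by edgeR, and the others did not pass the test. Such counts stand beside 28.9% lower and 28.5% higher over all genes tested. All 11 B cell genes fell, with a median log2 fold change of -5.35, and their summed level was 30.9 to 240.4 CPM in mutants and 4232 to 5703 CPM in wild type. Of 11 monocyte and macrophage genes 10 fell (6 without mutant 2), with summed levels of 148 to 655 CPM in mutants and 1993 to 2557 CPM in wild type. Conventional dendritic cell genes fell in 5 of 5 for the cDC1 type, which depends on Irf8, and in 4 of 4 for the cDC2 type, in which Irf4 acts. The cDC1 sum was 34.1 to 65.0 CPM in mutants and 491 to 593 CPM in wild type. Its largest part in each spleen was Wdfy4, which averaged 29.5 CPM in mutants and 422 CPM in wild type. Xcr1 averaged 1.43 CPM in mutants and 23.5 CPM in wild type. The cDC2 sum was 0.391 to 1.51 CPM in mutants and 18.1 to 51.1 CPM in wild type. Plasmacytoid dendritic cell genes fell in 4 of 5, with sums of 41.9 to 70.0 CPM in mutants and 186 to 313 CPM in wild type. The highest sum was that of wild-type 2, where Klk1, among the 4 that fell, stood at 146 CPM, against 3.87 to 8.41 CPM in the other wild-type spleens. Wild-type 2 was also the spleen with the highest sum of pancreatic enzyme genes (10003 CPM), and a link was not tested. Most of each mutant sum was Tcf4, which averaged 49.2 CPM in mutants and 122 CPM in wild type. Siglech averaged 0.319 CPM in mutants and 26.9 CPM in wild type. No gene of these lists was at 0 in all mutants.

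Plasma cells are the cells with the most Irf4, and 6 of 7 plasma cell genes fell while Sdc1, the surface proteoglycan CD138, rose (2.79, SE 0.26). Their summed level was 221 to 435 CPM in mutants and 917 to 1724 CPM in wild type. In T cells, which raise Irf4 on activation, 6 of 7 genes rose, with sums of 1205 to 2838 CPM in mutants and 505 to 686 CPM in wild type. All 8 immature T cell genes rose, with sums of 1450.2 to 3625 CPM in mutants and 258 to 368 CPM in wild type. Of 4 activated and regulatory T cell genes 2 fell and 1 rose (2 by DESeq2 and without mutant 2). Foxp3, the factor of regulatory T cells, fell by 6.04 on the log2 scale and Il2ra, a receptor chain for interleukin 2 that is raised on activation, rose (5.01, SE 1.04). Il2ra stood at 28.5, 233 and 1222 CPM in mutants 1 to 3, the last being the mutant with the most Irf4, against 15.1 to 15.8 CPM in wild type. Mutant 2 had more Il2ra than mutant 1 but less Irf4 (16.8 against 23.8 CPM). NK cell genes fell in 6 of 7, with summed levels of 7.11 to 17.1 CPM in mutants and 109 to 143 CPM in wild type, and genes of dividing cells rose in 7 of 8, with sums of 4452 to 4976 CPM in mutants and 616 to 3174 CPM in wild type. Of 8 erythroid genes 0 were called in either direction by edgeR, DESeq2 or limma-voom, with 0 at an unadjusted p under 0.05, and 4 were called higher without wild-type 1 and 2, with summed levels of 1645 to 9324 CPM in mutants and 674 to 8944 CPM in wild type.

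The order of the mutants for Irf5 and Irf8, highest in mutant 1 and lowest in mutant 3, was shared by the medians of some marker lists. Other medians did not share it, and genes within a list could differ from its median. Relative to the wild-type mean, log2 levels in mutants 1, 2 and 3 were -3.25, -3.60 and -5.73 for Irf5 and -2.64, -3.06 and -5.16 for Irf8. The median of the monocyte and macrophage list stood at -1.41, -2.63 and -4.97, that of the cDC2 list at -3.94, -4.83 and -5.74, and that of the spleen stroma and resident macrophage list at -0.36, -1.13 and -3.22. The B cell list, at -5.38, -4.48 and -8.11, was also lowest in mutant 3 but highest in mutant 2. The median of the cDC1 list, at -3.00, -4.26 and -3.47, was lowest in mutant 2, as Wdfy4 and Itgae were. Its other genes had the order of Irf8. Xcr1 stood at 2.87, 1.16 and 0.260 CPM in mutants 1 to 3, Clec9a at 5.30, 2.78 and 0.423 CPM and Cadm1 at 19.6, 9.66 and 4.59 CPM. The median of the plasmacytoid dendritic cell list, at -4.78, -4.73 and -3.41, was highest in mutant 3. Of its genes Pacsin1 alone was highest there, at 1.05, 1.09 and 2.80 CPM in mutants 1 to 3. Siglech (0.433, 0.458 and 0.0651 CPM), Tcf4 and Cox6a2 were lowest in mutant 3. For Irf4 the mutants stood at -2.19, -2.69 and -0.70, beside -2.83, -2.39 and -3.83 for the plasma cell list, 0.08, -1.14 and -0.38 for the activated and regulatory T cell list and the cDC2 values already given. The plasma cell and cDC2 medians were lowest in mutant 3, where Irf4 was highest. With 3 mutants such orders are a description.

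**Figure D3:**
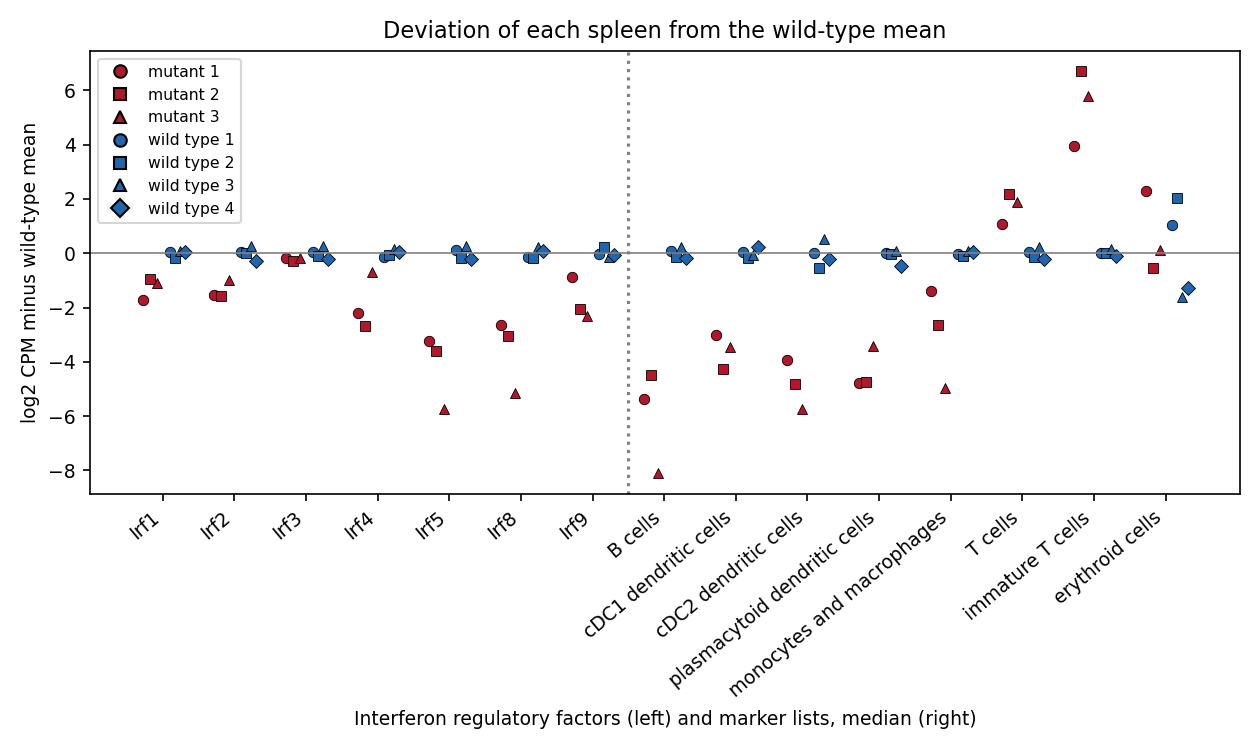
Log2 CPM of each spleen minus the wild-type mean, for the 7 IRF genes (left of the dotted line) and as the median of each marker list (right), with mutants in red and wild type in blue. Mutant Irf5 lies between -3.25 and -5.73 and mutant Irf8 between -2.64 and -5.16, the B cell median between -4.48 and -8.11, and Irf3 near 0.

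Around the IRFs, the first group of genes holds the sensors, adaptors and kinases that activate Irf3 and Irf5. Of 21 such genes, 13 were called lower and 2 higher, beside 28.9% and 28.5% of all genes tested, with a median log2 fold change of -1.08. Unc93b1, which carries nucleic acid sensing Toll-like receptors to endosomes, had 79.1, 58.0 and 32.9 CPM in mutants, against 449.5 to 579.7 CPM in wild type (-3.12, SE 0.32). Log2 fold changes were -1.68 (SE 0.20) for Slc15a4, an endosomal transporter needed for Irf5 signalling, -2.39 (SE 0.20) for Ddx58, the RNA sensor RIG-I, and -1.47 (SE 0.16) for the adaptor Traf3. The genes that rose were Mb21d1, the DNA sensor cGAS (1.29, SE 0.30), and the ubiquitin ligase Traf6 (0.45, SE 0.14), and without wild-type 1 and 2 the count that rose was 0. Tbk1, the kinase that phosphorylates Irf3, stood at -0.31 (SE 0.15, edgeR adjusted p = 0.103).

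Of 9 receptors, kinases and STAT partners of the interferon pathway, 7 were called lower and 0 higher, beside 28.9% and 28.5% of all genes tested. Their median was -1.26 (0 higher also by DESeq2, limma-voom and an unadjusted p under 0.05). Stat2, a partner of Irf9, had 43.7, 44.5 and 35.9 CPM in mutants, against 141 to 156 CPM in wild type (-1.86, SE 0.13). Unlike Irf9, it was nearly level among the 3 mutants. Among the others, the interferon gamma receptor chain Ifngr2 stood at -1.53 (SE 0.18) and the kinase Tyk2 at -1.42 (SE 0.22) on the log2 fold change scale.

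The ligands were close to absent from these libraries. Of 10 interferon genes, 7 had 0 counts in every spleen, among them Ifna1, Ifna2, Ifna4 and Ifna5, which at 3 counts a group allows up to 0.0279 CPM in mutants and up to 0.017 CPM in wild type, for counting error only. Ifng, the ligand that induces Irf1, had 0.144, 0 and 0 CPM in mutants, 7 counts in all, against 1.18 to 1.66 CPM in wild type, 240 counts in all. It was the single ligand with enough counts to test and was called lower (edgeR adjusted p = 0.00283).

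Targets of the Irf9 complex went less evenly. Of 19 interferon-stimulated genes, 8 were called lower and 0 higher, beside 28.9% and 28.5% of all genes tested, with a median of -1.85. Some not called had large decreases, with each mutant below each wild-type spleen, such as Oasl1 (-2.09, SE 0.99) and Ifi44 (-2.20, SE 0.89). Bst2 stood at 0.20 (SE 0.35). DESeq2 called 14 lower and limma-voom 12, and 0 were higher by either tool or at an unadjusted p under 0.05. The count was 13 lower and 1 higher without mutant 1, where the median was -2.79. The lower count was 5 without wild-type 1 and 5 without wild-type 1 and 2. Oas2, a sensor of double-stranded RNA, had 5.96, 4.19 and 0.358 CPM in mutants, against 49.4 to 66.5 CPM in wild type (-3.94, SE 0.78). Ifit3, Oas1a and Rtp4 had log2 fold changes of -3.22 (SE 0.60), -3.18 (SE 0.63) and -2.31 (SE 0.36). Isg15, a ubiquitin-like modifier, stood at 77.4, 22.2 and 2.90 CPM in mutants, against 64.9, 156, 24.7 and 31.7 CPM in wild type (-1.01, SE 1.02, edgeR adjusted p = 0.424). Like Irf9, Isg15 and Oas2 were highest in mutant 1 and lowest in mutant 3 among the mutants.

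Of 16 genes associated with interferon gamma and Irf1, 12 were called lower and 1 higher, beside 28.9% and 28.5% of all genes tested. Their median was -1.64. Tap1, the peptide transporter of MHC class I loading, had 60.4, 74.5 and 65.6 CPM in mutants, against 213 to 256 CPM in wild type (-1.83, SE 0.14). Its chaperone Tapbp, the checkpoint ligand Cd274 and the interferon-inducible GTPase Igtp had log2 fold changes of -1.69 (SE 0.18), -2.81 (SE 0.29) and -1.28 (SE 0.16). Socs1, the feedback inhibitor of JAK kinases, was the gene that rose (0.71, SE 0.21), and the count that rose was 3 without mutant 1 and 0 without wild-type 1, wild-type 2, wild-type 3 or both wild-type 1 and 2.

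Of 12 partners with which Irf4 and Irf8 bind DNA, 6 were called lower and 1 higher, with a median of -0.88. Over all genes tested 28.9% were lower and 28.5% higher. Without mutant 1 the median of the partners was -1.49 with 8 lower. Spi1, the ETS factor PU.1, had 13.98, 8.64 and 2.38 CPM in mutants, against 61.8 to 79.5 CPM in wild type (-2.99, SE 0.54), and so was lowest in mutant 3, as Irf8 was. Log2 fold changes were -5.19 (SE 0.32) for Spib, its relative in B cells, -2.95 (SE 0.49) for Batf3, the partner of Irf8 in cDC1 cells, and -2.21 (SE 0.23) for Bcl6, a repressor of germinal centre B cells. Tcf3, which encodes the E proteins E12 and E47, rose (0.87, SE 0.20), and without mutant 2 the count that rose was 2. Batf itself stood at -0.70 (SE 0.28, edgeR adjusted p = 0.0615).

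Corepressors, coactivators and turnover factors of IRFs had 4 of 8 called lower and 3 higher, with a median of -0.43. These counts stand beside 28.9% lower and 28.5% higher over all genes tested. Trim21, a ubiquitin ligase for several IRFs, and Irf2bpl had log2 fold changes of -1.07 (SE 0.18) and -0.97 (SE 0.16), and the coactivator Crebbp one of -0.87 (SE 0.19). Among the genes that rose were Rbck1 (0.57, SE 0.13), which drives Irf3 turnover, and the Irf2 corepressor Irf2bp1 (0.45, SE 0.12). Without wild-type 1 and 2 the counts were 2 lower and 1 higher.

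**Figure D4:**
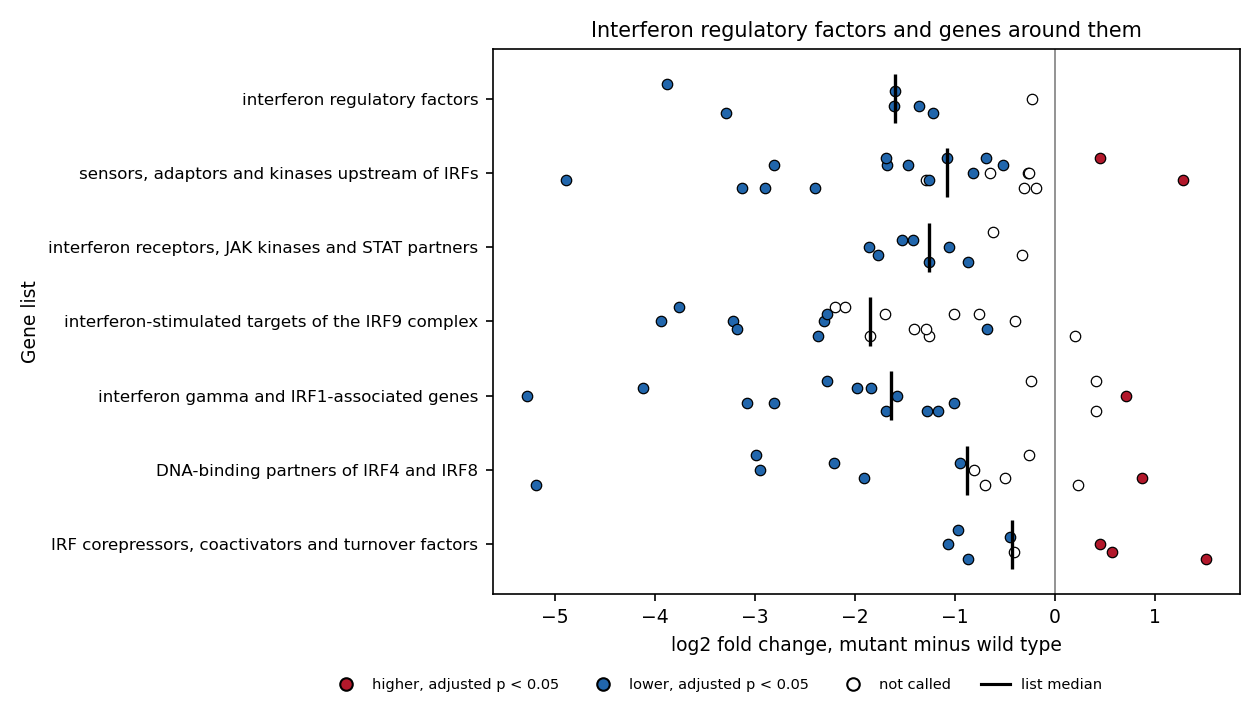
Log2 fold change (mutant minus wild type) of each tested gene in the IRF group and in 6 lists around it, with filled points past an adjusted p of 0.05 (blue lower, red higher), open points not past it and a bar at each median. The IRF median is -1.60, and the list medians run from -1.85 for targets of the Irf9 complex to -0.43 for cofactors.

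Profiles across the 7 spleens were compared by the root mean square difference of log2 CPM after centring each gene, with 10881 other genes of at least 5 CPM as candidates. Within the family the closest pairs were Irf1 with Irf2 (0.30) and Irf5 with Irf8 (0.32), and the farthest was Irf3 with Irf5 (2.10). Nearest to Irf8 were Lyn (0.10), a kinase of B and myeloid cells, Tpd52 (0.12) and Gsap (0.13). Among the nearest to Irf5 were Slc2a6 (0.11), a hexose transporter, and S1pr3 (0.15), a receptor for sphingosine 1-phosphate.

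Irf1 lay nearest to Pfkfb3 (0.08), a regulator of glycolysis, Arhgap30 (0.10) and B2m (0.10), the light chain of MHC class I. For Irf2 these were Pik3cd (0.09), a lipid kinase of leukocytes, Trim26 (0.10) and Arrdc1 (0.10), and for Irf3 they were Sh3bp1 (0.04), Bin2 (0.06) and Uimc1 (0.07), a part of the Brca1 A complex. Irf4 had no profile as close, with Pltp (0.18), Rpgrip1 (0.19) and Klf4 (0.20) nearest, and Irf9 lay nearest to Eml2 (0.12), Tmem140 (0.15) and Samd4 (0.15). Such likeness over 7 libraries of 2 groups mostly reflects a like difference between the groups and is given as a description.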

How the data were processed

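The tools named per the submitters' processing notes are TopHat2 2.0.12, featureCounts (Subread 1.4.6), edgeR and bcl2fastq 2.17.1.14, with the build mm10; their order and strand setting are not given there. The files deposited are raw counts per gene and a second table of scores, named CPM, which is each count times 1 constant per library (largest relative deviation 5e-15; column sums 849108 to 1164022). The deposited table was used only for alternatives. Deposited start coordinates count from 0 and are printed counting from 1.

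The whole table was fitted with edgeR 4.0.16 (R 4.3.3): TMM factors, filterByExpr, group as the only term, quasi-likelihood test, Benjamini-Hochberg adjustment over 15188 genes, called under 0.05. SE is the log2 fold change over the square root of F. CPM values are means ± SD (n = 3 mutant, 4 wild type). The procedure was tested on simulated data. Ratios used counts plus 0.5 and SciPy 1.17.1 exact permutation tests. Members and the 21 gene lists were chosen with earlier results of these data known, so lists carry counts and medians and no test of their own. Named list genes are the 4 (pathway) or 2 (marker) with the smallest p, and genes nearest in profile are 3 per factor. All other named list genes, such as Mb21d1, Tlx1, Isg15, Tbk1 and Batf, were chosen after their values were seen. Not every gene the rule allows is named, and some are not reported here. The lists without wild-type 1 and 2 and the comprehensive exon lengths were alternatives chosen after seeing the data. Other alternatives covered scaling, filters, DESeq2 1.42.0, limma-voom (limma 3.58.1), limma on log2 of the deposited score plus 1 or 0.1, the replicate number as a block, a threshold of 0.01, and libraries left out.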

Additional observations from a re-analysis of the deposited data

Results flagged for a closer look

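In 8 of 84 groups of 4 wild-type values examined, 1 spleen stood apart, its gap to the next passing Dixon's 95% critical value as a share of the group's range, where chance gives about 1 in 20. Irf1 was among them, with wild-type 2 at 165 CPM and the others at 189 to 194 CPM (0.831). Wild-type 3 stood high for Bcl6 (88.4 CPM, 0.881), Klf4 (17.6 CPM, 0.94) and Spi1 (79.5 CPM, 0.953). Wild-type 4 stood high for Oas2 (66.5 CPM, 0.941), and wild-type 2 for Tmem140 (25.1 CPM, 0.894). The pancreatic enzyme genes Cela2a and Ctrb1 stood at 2495 and 2384 CPM in wild-type 2, with gaps of 0.969 and 0.956 of the range. Without wild-type 2, Irf1 had a log2 fold change of -1.27.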

How the results depend on the processing

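The decreases of Irf1, Irf2, Irf5, Irf8 and Irf9 kept their direction and their side of the threshold under all 19 alternatives run for each. Leaving out 1 library gave log2 fold changes of -1.40 to -0.94 for Irf1, -1.57 to -1.19 for Irf2, -0.30 to -0.14 for Irf3, -2.42 to -1.29 for Irf4, -4.23 to -3.42 for Irf5, -3.67 to -2.84 for Irf8 and -2.11 to -1.36 for Irf9. Irf4 missed the threshold at -1.31 without mutant 1, at -1.71 without wild-type 1 and 2, and at its main value of -1.60 under an adjusted p of 0.01. Irf3 passed at -0.47 with library size alone. The Irf1 to Irf2 ratio reversed to -0.14 without mutant 2, within a range of -0.14 to 0.27 without 1 library. The causes were not tested.

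With the replicate number as a block, 6 IRF genes were called lower and 0 higher, the numbers found without it, and over all genes 3140 were lower and 2950 higher, against 4390 and 4334. Deviations of same-numbered spleens correlated at 0.0421, -0.186 and 0.101, so the numbers were not taken as pairs, and not every spleen correlated best with its own number.

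The list counts without wild-type 1 and 2 were chosen after seeing the data. Targets of the Irf9 complex called lower were 14 with DESeq2, 5 without wild-type 1 and 2, and 5 to 13 without 1 library, with 0 to 1 higher. Without wild-type 1 and 2, sensors called higher were 0, Irf1-associated genes called higher 0, and cofactors 2 lower and 1 higher. Without 1 library, sensors called higher were 1 to 2, Irf1-associated genes 0 to 3 and DNA-binding partners 1 to 2. Of marker lists, the median of activated and regulatory T cell genes turned to 0.052 without mutant 2 (range -0.55 to 0.052 without 1 library). The erythroid median turned to -1.01, -0.047 and -0.042 without mutant 1, wild-type 3 and wild-type 4 (range -1.01 to 1.26). With 3 mutants, depth was not the limit for these genes, which had at least 96 counts in each library.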
